A study of Rattus norvegicus with 6 samples.

Results

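The SLC25 family of mitochondrial carriers was examined in rat liver during total parenteral nutrition (TPN, feeding in which all nutrients are infused into a vein). The members were the rows of the deposited expression table whose symbol begins with Slc25a followed by a digit, 46 of 25926 rows, chosen by name and not by value. Liver RNA came from 3 control Sprague-Dawley rats that received 0.9% saline and 3 Sprague-Dawley rats that received TPN for 7 days and carry the label PNALD (parenteral nutrition-associated liver disease). All rats are labelled as 4 weeks old, and the labels name no genetic change in either group. Each rat gave 1 library, and the labels do not say how the control rats were fed. The question set by the groups is which carriers differ in expression between TPN and control liver. Values are FPKM (fragments per kilobase of transcript, scaled to the mapped fragments of the library), which are scaled to gene length, so that levels of different carriers can be set side by side.

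Carriers of this family sit mostly in the inner mitochondrial membrane, which is otherwise closed to charged metabolites. Each protein is built from 3 repeats of a pair of membrane helices and usually exchanges one solute for another. Through them the matrix takes up ADP and phosphate and gives out ATP, sends citrate to the cytosol for lipid synthesis, brings in fatty acids bound to carnitine, and trades ornithine, citrulline, aspartate and glutamate for the urea cycle and the malate-aspartate shuttle. Liver relies on all of these routes. Carriers were grouped by the cargo they are known for, and those whose cargo is not settled were kept as a class of their own.

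Control 2 and TPN 1 stood apart from the other libraries of their groups in acute-phase genes. The summed FPKM of 13 such genes was 24008, 64915 and 24202 in control 1, 2 and 3 and 123348, 57680 and 46631 in TPN 1, 2 and 3. The groups differed as well, with 12 of the 13 log2 fold changes (TPN minus control) positive and 1 negative. Their median was 1.20, and none of the 13 passed limma's adjusted threshold. Hepatocyte markers were abundant in every library, with a summed FPKM of 54923 to 83278 over 10 genes. Skeletal muscle markers were near 0, at 0.0485 to 0.358 FPKM summed over 7 genes, and Acta1, Mb and Myh2 were listed at 0 in all 6 libraries. Erythroid and cycling-cell markers were lower in TPN, as described beside the carriers they bear on. Markers of other liver cells gave no call, but some were separate between the groups. All 6 tested stellate cell markers were negative (summed FPKM 153.4, 175.9 and 107.6 in control and 73.9, 101.5 and 77.3 in TPN), 2 of them without overlap and 2 at an unadjusted limma p under 0.05. Both tested cholangiocyte markers were lower without overlap (summed FPKM over 6 genes of 14.0, 10.7 and 11.1 in control and 8.14, 6.42 and 7.32 in TPN), both at an unadjusted limma p under 0.05. Of 10 Kupffer cell and macrophage markers, 3 were higher without overlap, and the same number had an unadjusted limma p under 0.05. Over all 11362 rows tested, 9.09% were lower and 8.02% higher without overlap, and 11.4% had an unadjusted limma p under 0.05. The part of these cells in the values of the carriers was not tested. In bulk liver, fewer cells of a type and less RNA per cell cannot be told apart. The depth of each library is unknown, because FPKM holds no counts.

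Adenine nucleotide carrier Slc25a5 was the most abundant member, and a few carriers made up most of the family. The summed FPKM of all 46 members was 1283, 1179 and 1372 in control 1, 2 and 3 and 1112, 1360 and 1433 in TPN 1, 2 and 3. The groups overlapped in this total. The 5 members with the highest mean (Slc25a5, Slc25a47, Slc25a3, Slc25a15 and Slc25a13) held 52.7% to 57.6% of it in each library. At the other end, 27 of the 46 had a mean below 10 FPKM over the 6 libraries, and 8 were below 1 FPKM. In the plot of FPKM by library, the order of the abundant carriers was much the same in both groups, and most of the points of a carrier lay close together.

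**Figure D1:**
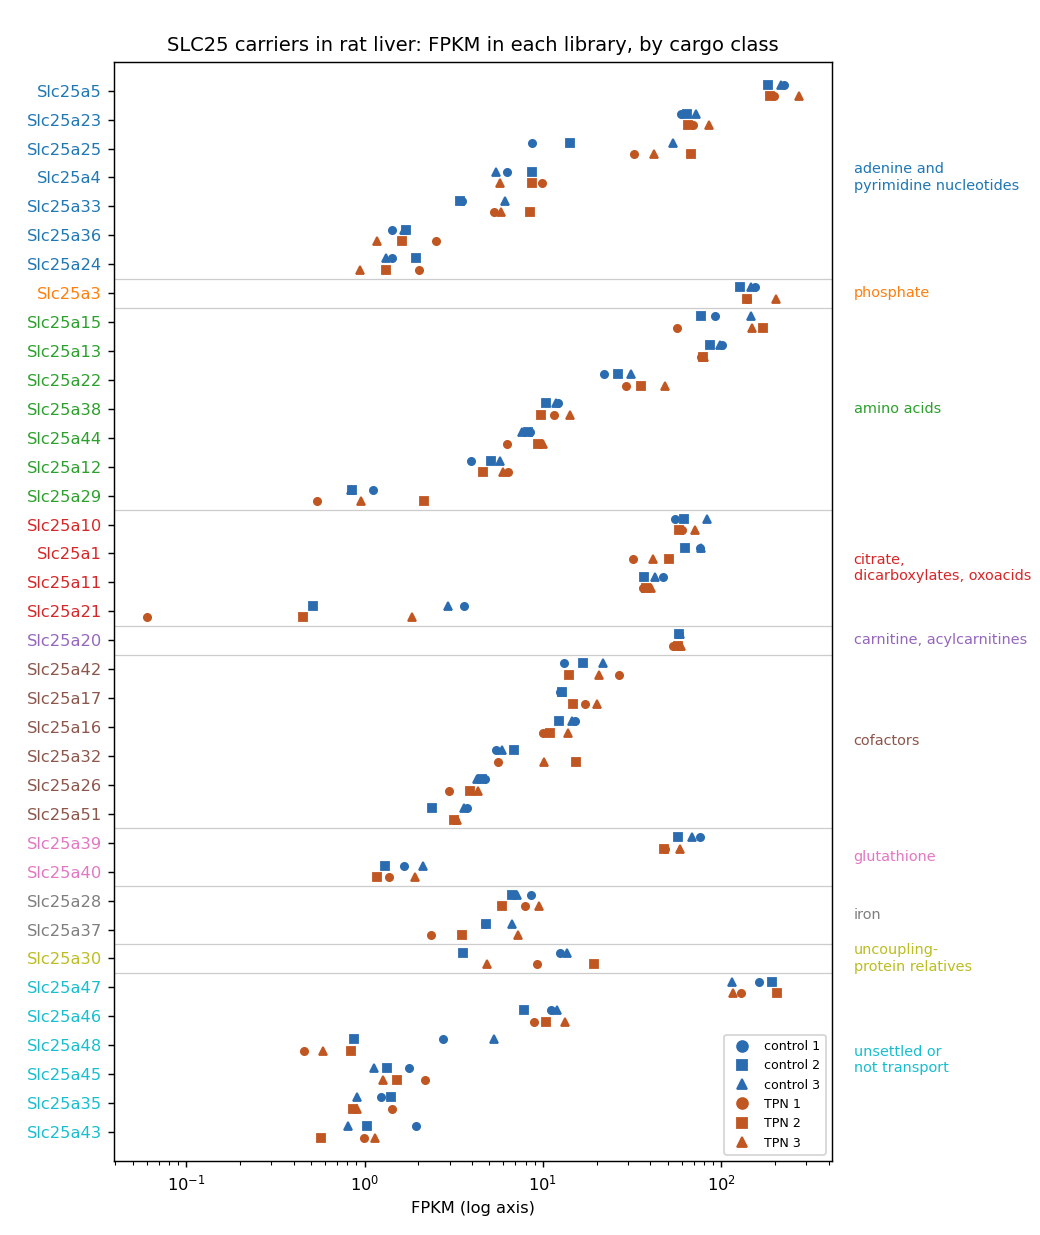
FPKM of 37 tested SLC25 carriers on a log axis, 1 row per carrier, grouped by cargo class. Blue symbols are the 3 control libraries and orange symbols the 3 TPN libraries. Carriers span from under 1 FPKM to 274 FPKM for Slc25a5 in TPN 3, and the colours separate in 4 rows.

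No member of the family passed the test between TPN and control. The test was limma on log2(FPKM + 1) over all 11362 rows with a mean of at least 1 FPKM, with Benjamini-Hochberg adjustment over all of them at 0.05. It called 0.246% of all rows tested (0.0264% higher and 0.22% lower in TPN) and 0 of the 38 SLC25 members that reached that mean. At an unadjusted limma p under 0.05 there were 4 members, with Slc25a1 and Slc25a48 lower and Slc25a17 higher among them, which is 10.5% of the 38 beside 11.4% of all rows tested. Control and TPN values were separate, without overlap, in 5 members, Slc25a13 being lower besides these 4, or 13.2% beside 17.1% of all rows tested. Of the 5, 2 were higher in TPN (8.02% of all rows tested) and 3 lower (9.09%). The shares of members lie near or below the background of the whole table. Log2 fold changes (TPN minus control) were positive in 22 members and negative in 16, beside 50.9% positive over all rows tested, with a median of 0.05 beside 0.01 over all rows tested. They ran from -1.13 for Slc25a48 to 1.21 for Slc25a25. In the absence of a call, the intervals show what sizes remain possible, and they differ greatly between carriers.

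**Figure D2:**
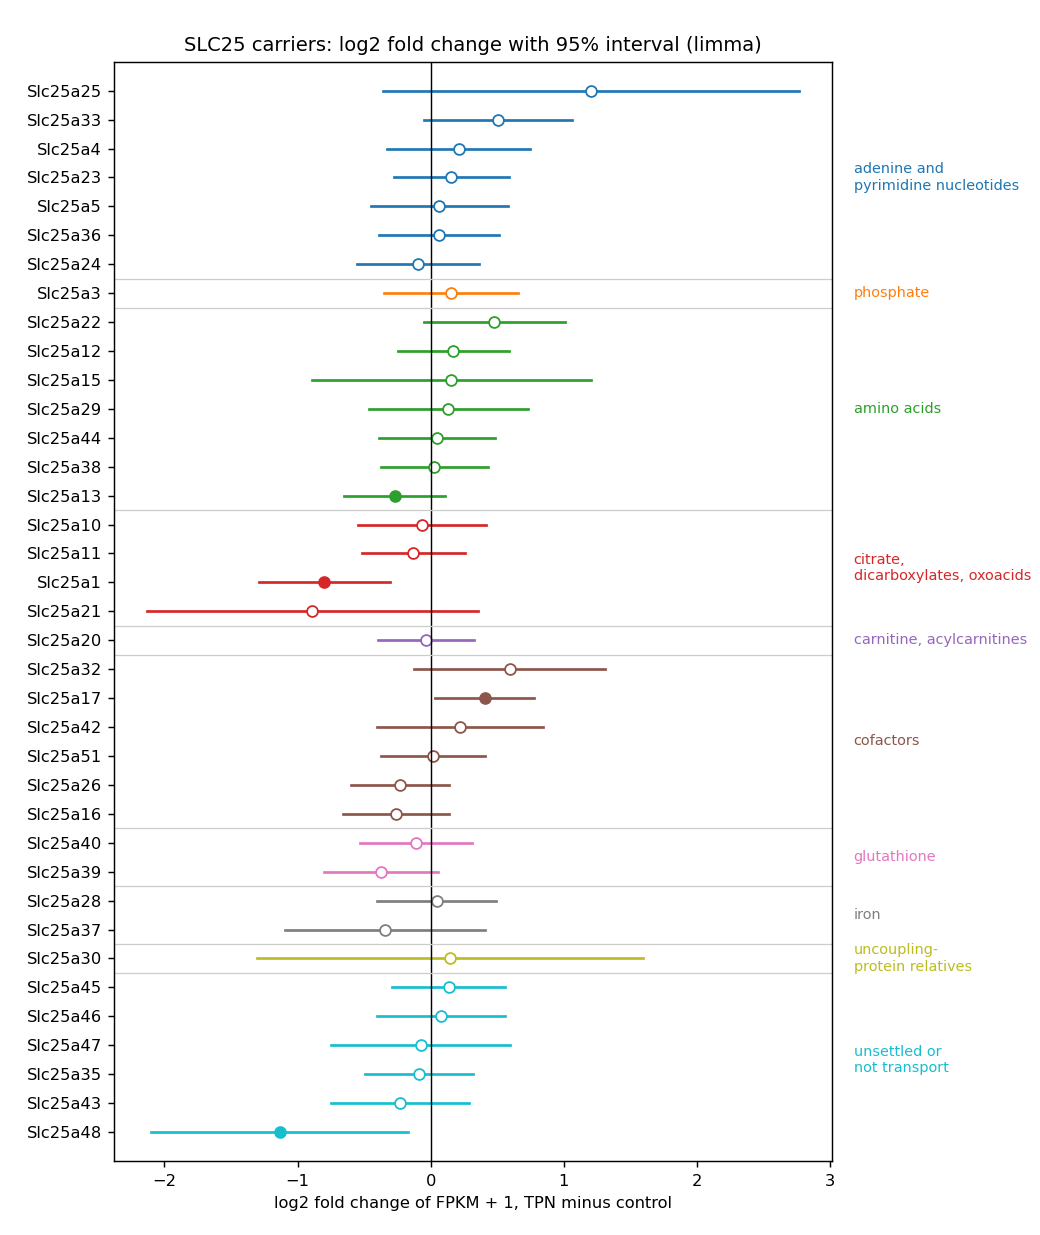
Log2 fold change of FPKM + 1 (TPN minus control) for 37 tested carriers, with the 95% interval from limma as a bar, grouped by cargo class. Filled points mark the 4 carriers shown whose groups do not overlap, and the vertical line marks no difference. Slc25a1 lies at -0.80 and Slc25a20 at -0.04, while Slc25a25, Slc25a30, Slc25a21 and Slc25a15 have the wide intervals.

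The citrate carrier Slc25a1, which exports citrate from the matrix for fatty acid and sterol synthesis, had the smallest p of the family. It measured 75.8, 62.5 and 77.1 FPKM in control 1, 2 and 3 and 32.0, 50.7 and 41.4 FPKM in TPN 1, 2 and 3. All TPN values lay below all control values, and the nearest pair was control 2 with TPN 2. The group means were 71.8 ± 8.08 and 41.4 ± 9.33 FPKM (SD, n = 3), 1.74-fold lower in TPN. The log2 fold change was -0.80 (95% interval -1.29 to -0.31, limma adjusted p = 0.229), so it did not pass. It stayed between -0.95 and -0.63 when each rat was left out in turn, and was -0.73 without control 2 and TPN 1 (limma adjusted p = 0.154, beside 0.154 to 0.813 over all alternatives). In mean FPKM, Slc25a1 ranked 6th of the family in control and 11th in TPN.

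The promoter of Slc25a1 is shown because this carrier had the smallest p of the family and its known route feeds sterol synthesis. The 250 bases before the start of the gene, from RefSeq (build GRCr8, chr11:96559804-96560053, plus strand), hold 1 CCAAT box, searched as CCAAT on both strands, whose reverse complement is in capitals and begins 151 bases before the start.
Slc25a1: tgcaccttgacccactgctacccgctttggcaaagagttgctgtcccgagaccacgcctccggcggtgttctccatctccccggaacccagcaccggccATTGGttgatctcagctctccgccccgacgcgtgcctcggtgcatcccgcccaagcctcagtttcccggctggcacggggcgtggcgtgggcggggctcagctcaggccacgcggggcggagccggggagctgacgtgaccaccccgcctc
CCAAT was found in 34.0% of all 33469 promoters in the table, each read over the 250 bases before the start, and in 21 of the 39 family members with a promoter there. The letters TCACNCCAC, a form of the sterol regulatory element, were found in 0.974% of all promoters and in none of those 39 members, also on both strands. A match is a description of these letters only.

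The other carriers of di- and tricarboxylates had negative log2 fold changes as well, and Slc25a10 turned to 0.03 after quantile normalisation. Slc25a10, the dicarboxylate carrier that exchanges malate or succinate for phosphate, had the highest mean of the class over the 6 libraries, although Slc25a1 was above it in the control mean, with 55.3, 61.5 and 83.6 FPKM in control and 60.1, 57.8 and 71.3 FPKM in TPN. The groups overlapped (log2 fold change -0.07, 95% interval -0.55 to 0.42). Slc25a11, the oxoglutarate-malate carrier of the malate-aspartate shuttle, had 42.1 ± 5.19 FPKM in control and 38.2 ± 1.91 FPKM in TPN (SD, n = 3) (log2 fold change -0.13).

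Slc25a21, the carrier of oxoadipate and oxoglutarate used in lysine and tryptophan breakdown, varied widely within both groups. It measured 3.63, 0.517 and 2.95 FPKM in control and 0.0603, 0.451 and 1.84 FPKM in TPN. Control 2 lay among the TPN values, and TPN 1 was the lowest of all. These are the libraries that stood apart in acute-phase genes, and the part of that difference in this result was not tested. The log2 fold change was -0.89 (95% interval -2.13 to 0.35, limma adjusted p = 0.576) and -1.07 without control 2 and TPN 1 (limma adjusted p = 0.217, the lowest over all alternatives). It was -1.79 with a pseudocount of 0.1 and -0.58 without TPN 1.

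Taken as a class, the citrate, dicarboxylate and oxoacid carriers held 14.2%, 13.7% and 15.0% of the summed family FPKM in control 1, 2 and 3 and 11.6%, 10.8% and 10.8% in TPN 1, 2 and 3. Their summed FPKM was 182, 161 and 206 in control and 129, 147 and 155 in TPN. Neither the shares nor the sums overlapped between the groups, and no test was made on a sum over members. Most of the gap in the sum came from Slc25a1, whose mean differed by more than those of the other members of the class.

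**Figure D3:**
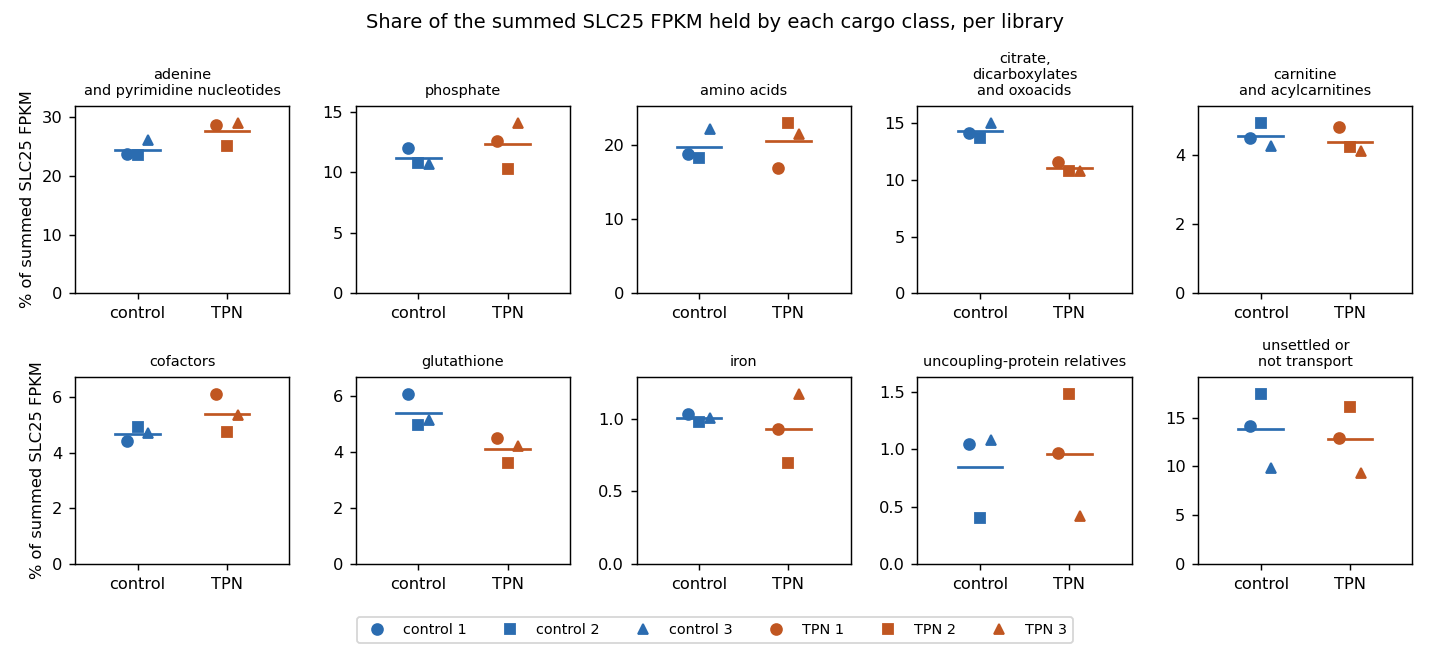
Percent of the summed SLC25 FPKM held by each cargo class in each library, with a horizontal line at the group mean and an axis from 0 in each panel. Blue is control and orange is TPN. The citrate class (11.6% or less in TPN and 13.7% or more in control) and the glutathione class (4.49% or less in TPN and 4.97% or more in control) are the panels without overlap.

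Enzymes that make, use or accompany cytosolic citrate were read in the same libraries, from a list of 12 genes that also holds the malate-aspartate shuttle. None of the 12 passed limma's adjusted threshold, and 2 (16.7%) had an unadjusted limma p under 0.05, beside 11.4% of all rows tested. Acly, which splits exported citrate into acetyl-CoA and oxaloacetate, measured 61.5, 50.5 and 91.4 FPKM in control and 15.4, 41.3 and 36.4 FPKM in TPN, without overlap. On the log2 scale Acly differed by -1.17 with an SE of 0.39 (limma adjusted p = 0.338). Idh1, the cytosolic isocitrate dehydrogenase that yields NADPH, measured 300.1, 180.3 and 245.8 FPKM in control and 142.7, 147.6 and 157.5 FPKM in TPN (limma adjusted p = 0.350). Aco1, the cytosolic aconitase, measured 45.5 ± 5.91 and 35.6 ± 2.39 FPKM (SD, n = 3) (limma adjusted p = 0.504), also without overlap.

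The matrix side of the same route differed less. Citrate synthase Cs measured 27.5 ± 4.16 FPKM in control and 23.3 ± 4.24 FPKM in TPN (SD, n = 3), with overlap. The shuttle enzymes Got1, Got2, Mdh1 and Mdh2 overlapped too, with log2 fold changes of 0.47, -0.06, 0.09 and 0.29 and limma adjusted p from 0.561 to 0.950. Of the list, 8 genes were negative and 4 positive.

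The carnitine-acylcarnitine carrier Slc25a20, which brings long-chain fatty acids into the matrix for oxidation, was among the steadiest genes in the table. It measured 57.7, 58.2 and 58.6 FPKM in control 1, 2 and 3 and 53.5, 57.5 and 59.3 FPKM in TPN 1, 2 and 3. The groups overlapped, and all 6 values lay within a few FPKM of each other. The log2 fold change was -0.04 (95% interval -0.40 to 0.32, limma adjusted p = 0.960), and 0.05 after quantile normalisation. Its SD within groups on the log2 scale was 0.05, lower than that of all but 0.748% of the rows tested.

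Of the 9 tested genes of the carnitine route, none passed. An unadjusted limma p under 0.05 was found in 3 (33.3%), beside 11.4% of all rows tested. Cpt1a, the outer membrane enzyme that forms acylcarnitines, measured 81.8 ± 10.8 FPKM in control and 102.6 ± 27.0 FPKM in TPN (SD, n = 3), and Cpt2, which reverses that step in the matrix, 35.2 ± 3.43 and 36.0 ± 8.58 FPKM. Their limma adjusted p were 0.698 and 0.991. Acsl1, a long-chain acyl-CoA synthetase, measured 603.5, 391.7 and 554.2 FPKM in control and 198.0, 356.4 and 286.6 FPKM in TPN, without overlap (limma adjusted p = 0.324). Tmlhe, the first enzyme of carnitine synthesis, measured 9.77, 6.82 and 8.58 FPKM in control and 3.41, 4.62 and 6.42 FPKM in TPN, also without overlap (limma adjusted p = 0.310).

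**Figure D4:**
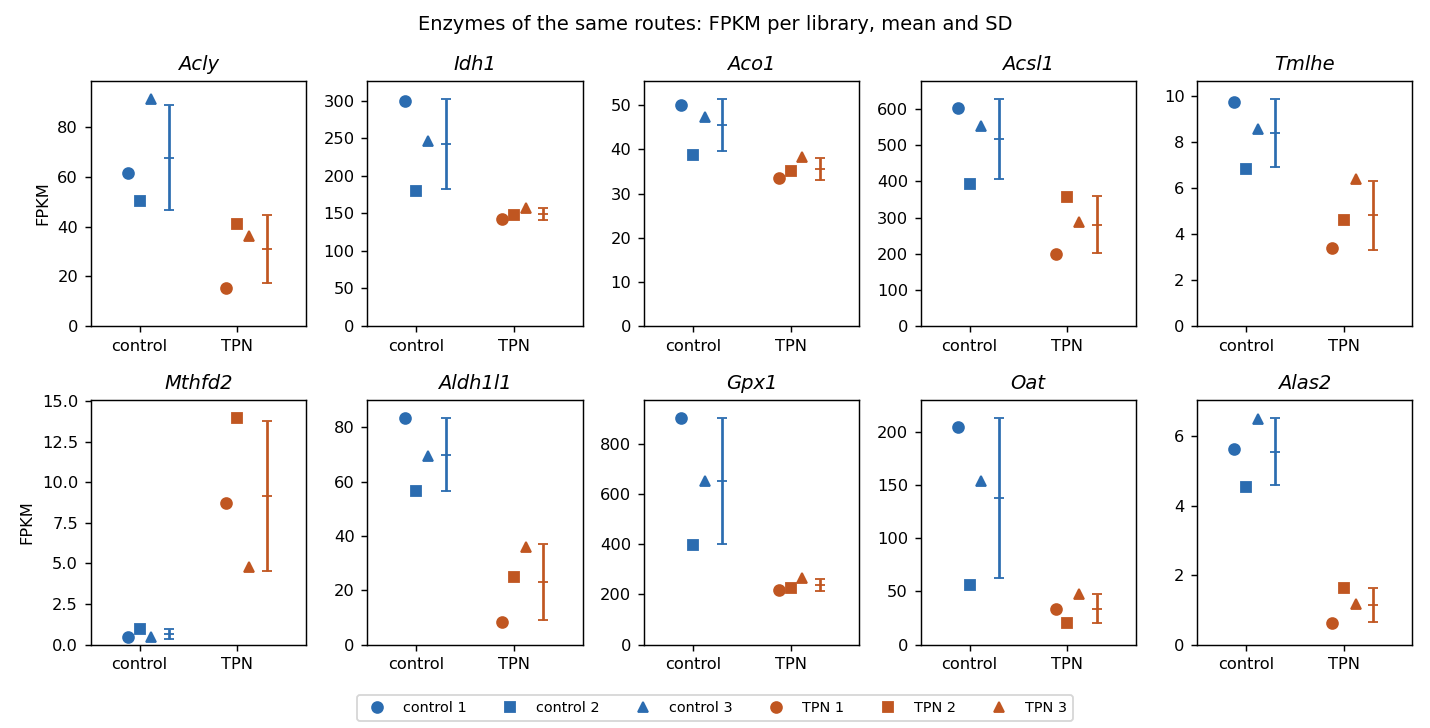
FPKM per library for enzymes that share a route with SLC25 carriers, 1 panel per gene, with the group mean and SD at the right of each group. Acly, Idh1, Aco1, Acsl1, Tmlhe, Aldh1l1, Gpx1, Oat and Alas2 lie lower in all 3 TPN libraries and Mthfd2 lies higher, and of these only Mthfd2 and Alas2 passed limma's adjusted threshold. The genes shown were picked for groups without overlap. Of 71 partner genes tested, 13 had no overlap (18.3% beside 17.1% of all rows tested). Of the 13, 12 were lower (9.09% of all rows tested) and 1 higher (8.02%).

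Among carriers of adenine and pyrimidine nucleotides, 6 of 7 tested members had positive log2 fold changes, none passed, and none had groups without overlap. Slc25a5 (ANT2), which exchanges matrix ATP for cytosolic ADP, measured 223.9, 183.1 and 216.4 FPKM in control and 196.6, 187.9 and 274.4 FPKM in TPN. The groups overlapped and TPN 3 was the highest (log2 fold change 0.06, 95% interval -0.45 to 0.58). Its paralog Slc25a4 (ANT1), the form known from heart and muscle, measured 6.80 ± 1.69 and 8.06 ± 2.11 FPKM (SD, n = 3). Slc25a5 exceeded Slc25a4 21.1-fold to 39.8-fold in control libraries and 20.0-fold to 48.0-fold in TPN libraries, so that the ratio overlapped between groups. Slc25a5 has 9 pseudogenes by symbol in the RefSeq gene table of GRCr8, and no source used here says how reads shared with them were assigned. The phosphate carrier Slc25a3, which supplies ATP synthase with phosphate, measured 154.7, 127.1 and 146.5 FPKM in control and 139.9, 139.5 and 201.8 FPKM in TPN (log2 fold change 0.15, 95% interval -0.35 to 0.65).

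Slc25a25, a calcium-regulated carrier that exchanges ATP-Mg for phosphate, showed the largest positive log2 fold change of the family and also the widest spread. It measured 8.68, 14.2 and 53.9 FPKM in control 1, 2 and 3 and 32.6, 67.9 and 41.9 FPKM in TPN 1, 2 and 3. Control 3 lay among the TPN values, and the control libraries differed 6.21-fold among themselves. The group means were 25.6 ± 24.7 and 47.5 ± 18.3 FPKM (SD, n = 3), with a log2 fold change of 1.21 (95% interval -0.36 to 2.77, limma adjusted p = 0.541). That value was 1.93 without control 3 (limma adjusted p = 0.170, the lowest over all alternatives) and 0.68 without control 1. Its relative Slc25a23, another ATP-Mg and phosphate carrier, was much steadier, at 65.6 ± 6.54 and 73.5 ± 10.9 FPKM (SD, n = 3). Slc25a24, the third tested carrier of that kind, measured 1.56 ± 0.325 and 1.42 ± 0.544 FPKM, and Slc25a41, the fourth, was listed at 0 in all 6 libraries.

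Slc25a33 and Slc25a36 carry pyrimidine nucleotides. Slc25a33 measured 3.53, 3.43 and 6.12 FPKM in control and 5.35, 8.51 and 5.81 FPKM in TPN. As with Slc25a25, control 3 was the high control and TPN 2 the highest library (log2 fold change 0.51, 95% interval -0.05 to 1.07, limma adjusted p = 0.478). Slc25a36 measured 1.60 ± 0.154 and 1.77 ± 0.676 FPKM (SD, n = 3).

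Promoters of Slc25a25 and Slc25a33 are shown because both carriers were high in control 3 and in TPN 2. That order was not particular to them, since Slc25a15 and Slc25a30 had it as well. Slc25a25 and Slc25a33 were the 2 family members with a promoter in the RefSeq table that hold the full cAMP response element. It was searched as TGACGTCA (a palindrome) and found in 1.59% of the 33469 promoters. Capitals mark it. It begins 158 bases before the start of Slc25a25 (GRCr8, chr3:36116582-36116831, minus strand, the 250 bases before the start) and 84 bases before the start of Slc25a33 (GRCr8, chr5:165503020-165503087, minus strand, a stretch of 68 bases).
Slc25a25: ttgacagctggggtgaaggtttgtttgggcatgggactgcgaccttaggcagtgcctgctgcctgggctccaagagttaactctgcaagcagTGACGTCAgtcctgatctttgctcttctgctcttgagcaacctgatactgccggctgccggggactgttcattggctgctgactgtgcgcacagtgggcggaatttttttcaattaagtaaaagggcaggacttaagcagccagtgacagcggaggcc
Slc25a33: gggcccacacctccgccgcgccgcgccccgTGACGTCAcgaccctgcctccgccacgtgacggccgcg
The motif was chosen after the values of these carriers were seen, and a match is not evidence of binding.

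Of 8 tested genes on the path of nucleotides through both membranes, none passed. None had an unadjusted limma p under 0.05 (11.4% of all rows tested) or groups without overlap (17.1% of all rows tested). The 8 genes include the outer membrane channels Vdac1, Vdac2 and Vdac3 and the adenylate kinases Ak3 and Ak4, and their median log2 fold change was -0.08. Among mitochondrial solute carriers and relatives whose symbols do not begin with Slc25a, 12 were tested and none passed the threshold. None of them had an unadjusted limma p under 0.05, beside 11.4% of all rows tested, and their median log2 fold change was -0.20. The pyruvate carrier subunits Mpc1 and Mpc2 measured 148.6 ± 33.3 and 118.2 ± 34.6 FPKM in control and 101.2 ± 36.6 and 150.7 ± 57.6 FPKM in TPN (SD, n = 3), with limma adjusted p of 0.518 and 0.812. Ucp2, the uncoupling protein found in liver macrophages among other cells, measured 17.3, 23.3 and 13.8 FPKM in control and 30.4, 16.1 and 11.7 FPKM in TPN. The higher Ucp2 values lay in control 2 and TPN 1, which also had the highest summed FPKM of 10 Kupffer cell and macrophage markers in their groups (494.3, 595.0 and 394.1 in control and 656.6, 593.0 and 478.9 in TPN), and the part of these cells was not tested. Mtch1, an outer membrane protein also without an Slc25a symbol, measured 23.4 ± 0.859 FPKM in control and 20.4 ± 0.859 FPKM in TPN (SD, n = 3), without overlap (limma adjusted p = 0.666).

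Amino acid carriers gave positive log2 fold changes in 6 of 7 tested members, and none passed. Slc25a15, the ornithine-citrulline carrier of the urea cycle, was the most abundant, with 91.8, 77.4 and 147.4 FPKM in control and 56.8, 171.5 and 148.6 FPKM in TPN. TPN 1 was the lowest and TPN 2 the highest, so the control range fell inside the TPN range (log2 fold change 0.16, 95% interval -0.89 to 1.21). That value was 0.65 without TPN 1 and -0.14 without TPN 2.

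Slc25a13 (citrin), the aspartate-glutamate carrier of liver that serves the urea cycle and the malate-aspartate shuttle, was lower in TPN without overlap. It measured 100.5, 87.0 and 98.7 FPKM in control 1, 2 and 3 and 77.4, 79.1 and 80.0 FPKM in TPN 1, 2 and 3. The TPN values lay within a few FPKM of each other, and control 2 was nearest to them. The log2 fold change was -0.27 (95% interval -0.65 to 0.11, limma adjusted p = 0.586), and -0.13 after quantile normalisation. Its paralog Slc25a12 (aralar), the form known from brain and muscle, measured 4.93 ± 0.907 and 5.66 ± 0.933 FPKM (SD, n = 3), and Slc25a13 exceeded it 17.1-fold to 25.4-fold in control and 12.1-fold to 17.1-fold in TPN.

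Slc25a22, a glutamate carrier, measured 26.6 ± 4.70 FPKM in control and 37.8 ± 9.68 FPKM in TPN (SD, n = 3), with overlap (log2 fold change 0.48, 95% interval -0.05 to 1.01, limma adjusted p = 0.480). The glycine carrier Slc25a38, which supplies heme synthesis, measured 11.5 ± 0.908 and 11.8 ± 2.26 FPKM, and Slc25a44, a carrier of branched-chain amino acids, 8.12 ± 0.459 and 8.56 ± 2.01 FPKM. Slc25a29, a carrier of basic amino acids, was near 1 FPKM in both groups and reached 2.16 FPKM in TPN 2.

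All 7 genes listed for the urea cycle and ornithine use were on the negative side (median log2 fold change -0.39), and none passed. Of these genes, 1 (14.3%) had an unadjusted limma p under 0.05, beside 11.4% of all rows tested. Cps1, which starts the cycle in the matrix, measured 719.3, 527.7 and 700.6 FPKM in control and 318.1, 440.9 and 901.3 FPKM in TPN, so TPN 3 was the highest library and TPN 1 the lowest. Oat, which degrades ornithine, measured 204.5, 55.6 and 153.8 FPKM in control and 33.3, 20.6 and 47.4 FPKM in TPN, without overlap (log2 fold change -1.88 with an SE of 0.52, limma adjusted p = 0.262). The ornithine carrier itself had its group means in the other order, at 105.5 ± 37.0 FPKM in control and 125.6 ± 60.7 FPKM in TPN (SD, n = 3).

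Cofactor carriers had positive log2 fold changes in 5 of 7 tested members, and none passed. Slc25a17, the peroxisomal carrier of coenzyme A, FAD and NAD+, measured 12.5, 12.9 and 12.8 FPKM in control and 17.1, 14.8 and 20.1 FPKM in TPN. The control values were nearly equal, and all TPN values lay above them (1.36-fold higher in the mean, log2 fold change 0.41, 95% interval 0.04 to 0.78, limma adjusted p = 0.397).

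Slc25a32, known for bringing FAD and folate into mitochondria, measured 5.46, 6.86 and 5.92 FPKM in control 1, 2 and 3 and 5.62, 15.4 and 10.2 FPKM in TPN 1, 2 and 3. TPN 1 lay among the controls and the other TPN libraries lay above them all. The log2 fold change was 0.59 (95% interval -0.12 to 1.31, limma adjusted p = 0.513), 0.94 without TPN 1 (limma adjusted p = 0.151), 0.28 without TPN 2, and 1.02 without control 2 and TPN 1 (limma adjusted p = 0.130, the lowest over all alternatives). Mthfd2, a folate enzyme of the matrix, was 1 of the 6 tested genes of the one-carbon list and the one that passed. It measured 0.491, 0.985 and 0.483 FPKM in control and 8.70, 14.0 and 4.76 FPKM in TPN (log2 fold change 2.53 with an SE of 0.33, limma adjusted p = 0.0422), and like Slc25a32 it was highest in TPN 2. With any 1 rat left out, Mthfd2 no longer passed (log2 fold change 2.19 to 2.88, limma adjusted p = 0.0604 to 0.165), nor did it after median-ratio scaling (0.0902) or quantile normalisation (0.0932), without a filter (0.160), with plain moderation (0.0512) or without control 2 and TPN 1 (0.0884). With a pseudocount of 0.1 its log2 fold change was 3.55 (limma adjusted p = 0.0343). Mthfd2 also passed with the replicate number as a block (limma adjusted p = 0.0133) and with rows of the same symbol summed (0.0414). It passed too with each library scaled to the same total FPKM (0.0493). Aldh1l1, a cytosolic folate enzyme, was lower in TPN without overlap, at 83.6, 56.6 and 69.6 FPKM in control and 8.13, 24.9 and 36.0 FPKM in TPN (limma adjusted p = 0.270).

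The groups overlapped in Slc25a42, Slc25a16, Slc25a26 and Slc25a51. Slc25a42, a coenzyme A carrier and the most abundant of the class, measured 13.1, 16.8 and 21.7 FPKM in control and 26.7, 14.0 and 20.6 FPKM in TPN (log2 fold change 0.22, 95% interval -0.41 to 0.84). Slc25a16, also linked to coenzyme A, measured 14.0 ± 1.43 and 11.6 ± 1.95 FPKM (SD, n = 3), and Slc25a26, the S-adenosylmethionine carrier, 4.52 ± 0.241 and 3.74 ± 0.703 FPKM. Slc25a51, the NAD+ carrier, measured 3.25 ± 0.751 and 3.24 ± 0.0669 FPKM, with a log2 fold change of 0.01 (95% interval -0.38 to 0.40).

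**Figure D5:**
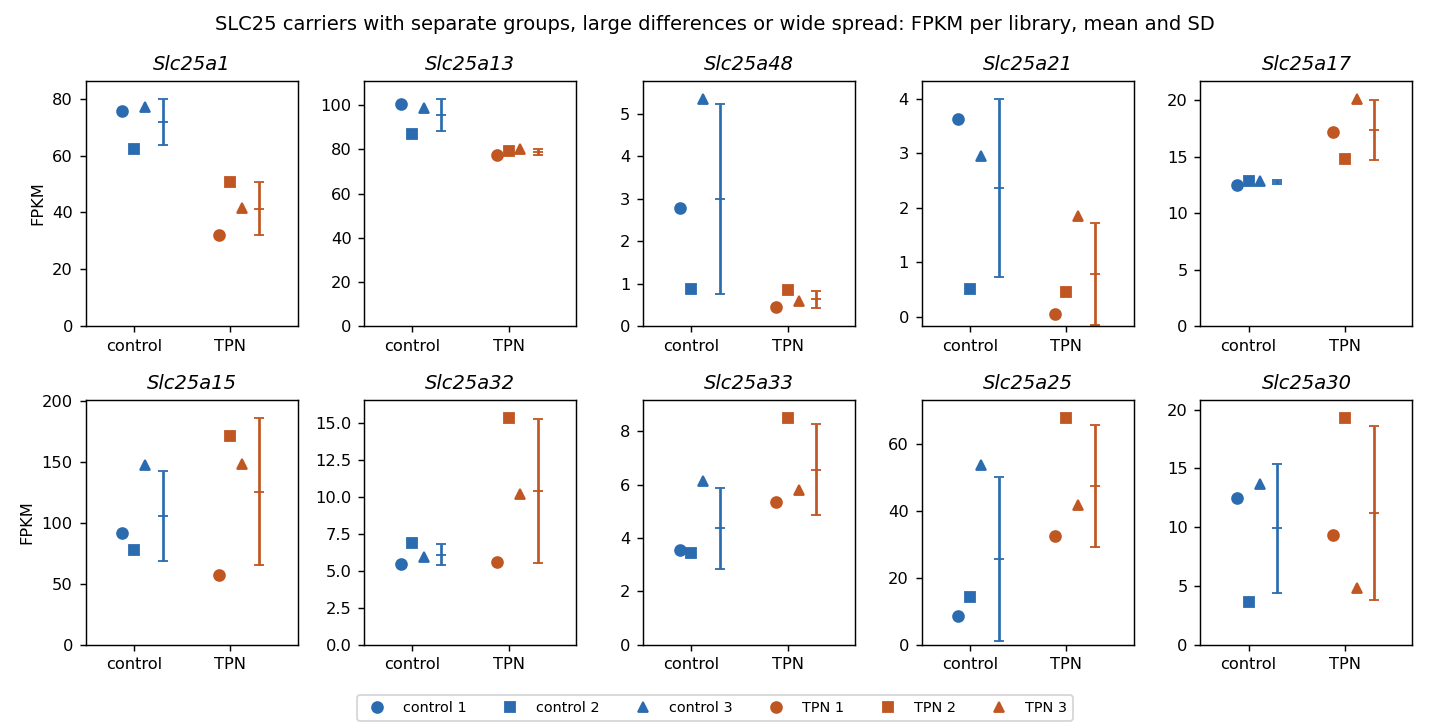
FPKM per library for 10 SLC25 carriers, 1 panel each, with the group mean and SD at the right of each group. Slc25a1, Slc25a13 and Slc25a48 lie lower and Slc25a17 higher in all 3 TPN libraries, Slc25a21, Slc25a32, Slc25a33 and Slc25a25 show 1 or more libraries inside the other group, and Slc25a30 and Slc25a15 vary as much within groups as between them.

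The glutathione carriers had negative log2 fold changes. Slc25a39 measured 76.5, 57.3 and 68.4 FPKM in control and 48.6, 48.0 and 58.5 FPKM in TPN, so that control 2 fell just below TPN 3 (log2 fold change -0.37, 95% interval -0.80 to 0.06, limma adjusted p = 0.498). It has 8 pseudogenes by symbol in the same RefSeq table. Slc25a40 measured 1.69 ± 0.409 and 1.49 ± 0.383 FPKM (SD, n = 3). As a share of the summed family FPKM the class held 6.09%, 4.97% and 5.14% in control and 4.49%, 3.62% and 4.21% in TPN, without overlap. Gpx1, the abundant glutathione peroxidase, measured 904.9, 398.8 and 653.7 FPKM in control and 219.5, 224.8 and 264.2 FPKM in TPN (log2 fold change -1.39 with an SE of 0.31, limma adjusted p = 0.172). None of the 6 tested genes of glutathione synthesis and use passed. Of these genes, 1 (16.7%) had an unadjusted limma p under 0.05, beside 11.4% of all rows tested.

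Mitoferrins bring iron to the matrix for heme and iron-sulfur clusters. Slc25a28 (mitoferrin 2), the widely expressed form, measured 8.54, 6.69 and 7.12 FPKM in control and 7.97, 5.90 and 9.55 FPKM in TPN, with overlap (log2 fold change 0.04). Slc25a37 (mitoferrin 1), the form that red cell precursors use, measured 4.75, 4.80 and 6.68 FPKM in control and 2.37, 3.52 and 7.25 FPKM in TPN, given for each library because erythroid markers differed between the groups. TPN 3 was the highest library and TPN 1 and TPN 2 the lowest (log2 fold change -0.34, 95% interval -1.09 to 0.41, limma adjusted p = 0.746).

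Erythroid markers, which include heme enzyme Alas2, did not share that order. Their summed FPKM over 12 rows was 2130, 2126 and 2422 in control and 231.2, 578.7 and 404.7 in TPN, and 4 of the 6 tested passed, all lower. That count was 4 without control 2 and TPN 1 and 0 without control 1, control 3, TPN 2 or TPN 3, with every tested marker still negative. It was also 0 under either of quantile normalisation and median-ratio scaling and without a filter, and 1 with a pseudocount of 0.1 or plain moderation. Alas2 measured 5.65, 4.55 and 6.50 FPKM in control and 0.625, 1.62 and 1.17 FPKM in TPN (log2 fold change -1.63 with an SE of 0.21, limma adjusted p = 0.0418), and kept its call without control 2 (0.0435) and without TPN 1 (0.0494) but not without any other rat (up to 0.148). The call was also lost with a pseudocount of 0.1 (limma adjusted p = 0.0604), with plain moderation (0.0512), after median-ratio scaling (0.0572) or quantile normalisation (0.0643), and without a filter (0.154). Alas2 kept it with the replicate block (limma adjusted p = 0.0390) and with rows of the same symbol summed (0.0414). It also did so with each library scaled to the same total FPKM (0.0493) and without control 2 and TPN 1 (0.0294). In TPN 3, Slc25a37 was at its highest and Alas2 was below every control. The part of red cell precursors in the Slc25a37 values was not tested. Of the 11 tested rows for iron and heme in mitochondria, Alas2 was the one that passed, and 10 had negative log2 fold changes. Ppox, an enzyme late in heme synthesis, measured 11.8, 8.86 and 9.84 FPKM in control and 5.36, 5.28 and 7.52 FPKM in TPN, without overlap (limma adjusted p = 0.241). The cysteine desulfurase Nfs1, which supplies sulfur for iron-sulfur clusters, has 2 rows, of which 1 was lower without overlap (log2 fold change -0.44, limma adjusted p = 0.476) and 1 overlapped (log2 fold change -0.27). Cycling-cell markers had a summed FPKM over 10 genes of 36.2, 25.5 and 19.8 in control and 4.32, 2.51 and 1.81 in TPN, and 4 of the 7 tested passed, all lower, with 0 to 4 when 1 rat was left out and 0 under both of those scalings and without a filter. The part of both marker lists in the values of the carriers was not tested.

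Slc25a30, a relative of the uncoupling proteins, measured 12.5, 3.58 and 13.7 FPKM in control and 9.33, 19.3 and 4.84 FPKM in TPN. Control 2 was the lowest and TPN 2 the highest, and the libraries differed 3.82-fold within control and 3.99-fold within TPN. Its log2 fold change of 0.15 had a 95% interval of -1.30 to 1.59, and it was -0.39 without control 2 and -0.32 without TPN 2. The other relatives, Slc25a14 and Slc25a27, were below 1 FPKM in every library.

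Among members whose cargo is unsettled, Slc25a47 was the abundant one. This liver-enriched carrier measured 162.6, 193.4 and 114.5 FPKM in control and 129.6, 204.9 and 115.8 FPKM in TPN, with much the same range in both groups (log2 fold change -0.08, 95% interval -0.75 to 0.60, and 0.02 after quantile normalisation). Slc25a46, a protein of the outer membrane known for a part in mitochondrial fission rather than transport, measured 10.3 ± 2.15 and 10.9 ± 2.24 FPKM (SD, n = 3). Slc25a45, Slc25a35 and Slc25a43 had means of 0.902 to 1.66 FPKM in the groups and overlapped.

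Slc25a48 had the largest negative log2 fold change of the family. It measured 2.77, 0.877 and 5.34 FPKM in control 1, 2 and 3 and 0.457, 0.838 and 0.581 FPKM in TPN 1, 2 and 3. The groups did not overlap, but control 2 lay just above TPN 2, and the control libraries differed 6.09-fold. The means were 2.99 ± 2.24 and 0.626 ± 0.194 FPKM (SD, n = 3), 4.79-fold lower in TPN, with a log2 fold change of -1.13 (95% interval -2.10 to -0.17, limma adjusted p = 0.376). Leaving out control 2 gave -1.59 (limma adjusted p = 0.0610, the lowest over all alternatives), leaving out control 3 gave -0.72, and leaving out control 2 and TPN 1 gave -1.52 (limma adjusted p = 0.0776). With a pseudocount of 0.1 in place of 1 the value was -1.81, since a value of this size is near the pseudocount.

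Rats of the same group differed more in a few carriers than in most genes. The SD within groups of log2(FPKM + 1) had a median of 0.25 over the 38 tested members and 0.23 over all rows tested. Slc25a25 (0.99), Slc25a30 (0.92), Slc25a21 (0.80), Slc25a15 (0.69) and Slc25a48 (0.63) lay above 94.4% or more of all rows tested, with Slc25a48 at 94.4% and Slc25a25 at 98.3%. Slc25a20 (0.05, above 0.748%) and Slc25a13 (0.08, above 3.28%) lay at the other end. These percentiles describe the 6 libraries and were not tested.

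Outside the test were 8 members with a mean below 1 FPKM over the 6 libraries. Slc25a14 ranged from 0.632 to 0.888 FPKM. Slc25a2, an ornithine carrier, ranged from 0.364 to 0.887 FPKM in control and 0.136 to 0.459 FPKM in TPN, with overlap. Slc25a27, Slc25a34 and Slc25a54 stayed below 1 FPKM in all libraries, and their groups overlapped. Slc25a18, Slc25a31 and Slc25a41 were listed at 0 in all 6 libraries, which in a table without counts can also be a failed estimate. None of the 8 had groups without overlap.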

How the data were processed

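Total RNA of 6 rat livers, 3 control and 3 TPN by their titles, was extracted with TRIzol and sequenced on standard Illumina libraries, per the labels' protocols. Per the submitters' processing notes, Bowtie 0.12.2, Cufflinks and the build Rnor_6.0 were used, and no source used here gives their order. The deposited values are the authors' FPKM per gene, whose columns were matched to samples by name. Values under 0.3 FPKM showed no steps of whole reads (at most 0.853% of ratios in a log2 bin of 0.01), so no counting error is given. Rows with a mean of at least 1 FPKM were tested as log2(FPKM + 1), which understates changes of low genes, with limma 3.58.1 (R 4.3.3, statmod 1.5.0, trend and robust settings), 2-sided, with Benjamini-Hochberg adjustment, and checked on simulated data. In that check, log2 changes of 1 and 2 were put into 100 simulated rows each, all of them well expressed. The test called 32 of the first 100 and 88 of the second, so many changes of 1 were missed. An exact permutation test of 3 against 3 cannot go below 0.10. The p-values rest on the spread between these rats, which limma moderates for each gene toward the spread of all rows tested. Slc25a20, with an SD within groups of 0.05, thus got an SE of 0.16. For such steady carriers the interval is wider than their own 6 values would give. Ranges for rats left out come from repeat fits.

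Carriers were named by a rule: groups without overlap, the most abundant of each cargo class, and the 3 largest log2 fold changes each way. Values in all libraries are given for these, and values or ranges for the others. Partner genes were those past the threshold or without overlap, at most 4 a list, and 13 named whatever their values. Members and lists were chosen with earlier results of these data known. Alternatives were another pseudocount, other filters, 3 scalings, plain moderation, the replicate number as a block, summed rows and rats left out. Same-numbered rats did not deviate together in all 3 pairs. In the RefSeq table of GRCr8, 26 members overlap another gene and 12 have pseudogenes, and no source used here states the strand or how shared reads were counted. Figures used matplotlib 3.10.9. 1 tested carrier and 1 partner gene are counted but not reported here by name or value.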

Additional observations from a re-analysis of the deposited data

How the results depend on the processing

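No SLC25 member passed limma's adjusted threshold under any of the 16 alternatives, with 1 to 6 members at an unadjusted limma p under 0.05. The 28 rows past the threshold in the whole table became 18 with a pseudocount of 0.1, 0 without a filter, 6 with a mean of at least 5 FPKM, 0 after median-ratio scaling, 0 after quantile normalisation, 8 with plain moderation, 58 with the replicate block, 0 to 46 with 1 rat left out, and 121 without control 2 and TPN 1. At an unadjusted limma p under 0.05 there were 1898, 1579 and 1591 rows without a filter, after median-ratio scaling and after quantile normalisation. The 5 carriers without overlap became 3 with a mean of at least 5 FPKM (12% of members beside 18.0% of all rows tested). After median-ratio scaling there were 9 (23.7% beside 20.4%). Fewer values must separate with rats left out. With 1 rat left out there were 5 to 11 (13.5% to 28.9% beside 20.9% to 32.9%). Without control 2 and TPN 1 there were 15 (40.5% of members beside 47.3% of all rows tested). Whether same-numbered rats were paired cannot be told from these values. Their deviations correlated at -0.214, -0.143 and 0.321, beside 0.418 for control 2 with TPN 1. The replicate block gave no member a call.

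Of 19 named carriers, 11 kept the sign of their log2 fold change under every alternative that could be fitted. The rest changed sign around 0. After quantile normalisation Slc25a10 gave 0.027, Slc25a20 0.046 and Slc25a47 0.022. Without control 2 and TPN 1, Slc25a20 gave 0.0055, Slc25a28 -0.045, Slc25a30 -0.37 and Slc25a47 0.17. With 1 rat left out the ranges were -0.19 to 0.10 for Slc25a10, -0.14 to 0.65 for Slc25a15, -0.068 to 0.0052 for Slc25a20, -0.10 to 0.21 for Slc25a28, -0.026 to 0.24 for Slc25a3, -0.39 to 0.58 for Slc25a30, -0.32 to 0.091 for Slc25a47 and -0.11 to 0.17 for Slc25a5. The cause was not tested. Unknown depth limits what can be said of carriers near 1 FPKM.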
